A study of Mus musculus with 2 samples.

Results

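The Lhx6 GABAergic neurons without Sst were the cells of both sections that had at least 20 panel transcripts, at least 2 Lhx6 transcripts, at least 1 transcript of Gad1 or Gad2, 0 Sst transcripts and fewer than 3 transcripts of Elfn1, Epha6 and Sertm1 together. They numbered 1443 of 55231 cells over the minimum of 20 transcripts in the control section against 8034 of 101250 in the KO section, in all 9477 of 156481. They were thus selected on their measured counts of these 7 genes, for which no ratio is given, and are called Lhx6+/Sst- cells. GABAergic cells with 0 Lhx6 and 0 Sst transcripts, 9940 in the control section against 25994 in the KO section, are called Lhx6- GABAergic cells and served as the comparison within each section. Cells that met the same definition but held Sst, 177 and 1766, are called Lhx6+/Sst+ cells.

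MERFISH, which reads single RNA molecules in tissue as barcodes over rounds of imaging, was run with a panel of 500 genes and 50 blank barcodes on 1 coronal section of 10 µm per group, cut from the fresh-frozen head of an E16.5 mouse embryo. The control carried the Cre allele Ssttm2.l(cre)Zjh/J on 1 chromosome and a tdTomato reporter at the ROSA26 locus behind the CAG promoter (Sst-Cre/tdTomato). The KO carried the same Cre and reporter and also, from the strain B6; 129S-Dnmt1tm2Jae/J, Dnmt1 flanked by loxP sites, as a conditional knockout. It is labelled Sst-Cre/tdTomato/Dnmt1 loxP2, and both groups shared Cre and reporter. Dnmt1 encodes a DNA methyltransferase. Cre is driven from the Sst locus, so by the labels the deletion belongs to cells that express Sst, and the Lhx6+/Sst- cells were chosen for holding no Sst transcript in the plane of the section. Whether Sst was used in them earlier cannot be read from these counts, and the deletion was not checked, because the panel held no probe for Dnmt1. With 1 section per group, genotype, section level and depth of decoding cannot be told apart, and no test was run.

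Lhx6 encodes a LIM-homeodomain transcription factor that is switched on as cells leave the medial ganglionic eminence (MGE), the ventral proliferative zone that gives rise to the somatostatin and parvalbumin interneurons of the cortex and to neurons of the striatum and the pallidum. Cortical interneurons of this origin migrate tangentially through the basal telencephalon and enter the pallium in streams along the marginal zone and the subventricular zone. Gad1 and Gad2 encode the enzymes that make GABA. In mouse assembly GRCm39, Gad2, Lhx6 and Gad1 all lie on chromosome 2, Lhx6 on the minus strand at 35971964 to 35995601, Gad1 on the plus strand at 70383416 to 70432372 and Gad2 on the plus strand at 22511862 to 22583886.

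The sections differed in depth before any choice of cells. Segmented cells numbered 108533 and 110004, and 2842355 and 13437174 molecules lay in them in the control section and the KO section. Cells over the minimum had a median of 34 transcripts in the control section against 109 in the KO section, and the Lhx6+/Sst- cells 43 and 132. Lhx6+/Sst- cells had a median volume of 1397 and 1038 µm³, against 1230 and 859 µm³ for all other cells over the minimum. Lhx6+/Sst+ cells were larger still, at 1579 and 1262 µm³. Blank barcodes took 0.514% of the transcripts of Lhx6+/Sst- cells in the control section against 0.507% in the KO section. The sections shared 0 cell identifiers.

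The values that chose the cells lay close to the thresholds in the control section. Of the control cells 62.5% held exactly 2 Lhx6 transcripts and 5.75% held 5 or more, while in the KO section these shares were 34.4% and 30.3%. Gad1 was present in 77.8% and 81.4% of the cells, and Gad2 in 46.3% and 77.8%. The Lhx6+/Sst- cells held 23.7% of the Lhx6 transcripts of all control cells and 52.5% of those of all KO cells. A further 24.7% of the control Lhx6 transcripts lay in cells under the minimum of 20, against 0.337% in the KO section. Sst was present in 10.9% (95% interval 9.45 to 12.5) of the Lhx6+/Sst- and Lhx6+/Sst+ cells together in the control section (177 of 1620). In the KO section it was present in 18.0% (17.3 to 18.8) of them (1766 of 9800). These shares are from the counts as deposited. Lhx6+/Sst+ cells had medians of 58 and 179 transcripts, against 43 and 132 in Lhx6+/Sst- cells. The part of depth in the shares was not tested, and 0 Sst transcripts in a cell does not show that it lacked Sst. All intervals are exact binomial or Poisson intervals and cover counting error only.

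Cells just inside and just outside the thresholds are described by Erbb4, the neuregulin receptor that guides migrating interneurons, and Npas1. Levels are given as CPM, transcripts per 1000000 panel transcripts outside the 7 genes of the rule. Erbb4 was at 6322 CPM (5562 to 7156) in the 902 control cells with 2 Lhx6 transcripts and at 5230 CPM (4776 to 5716) in the 2239 GABAergic cells with 1. In the KO section it was at 7084 CPM (6820 to 7357) in 2764 cells with 2 Lhx6 transcripts and at 5394 CPM (5227 to 5564) in 5322 cells with 1. The intervals overlapped in the control section and did not in the KO section. Npas1, a transcription factor of MGE-derived interneurons, stood at 1113 CPM inside and 1074 CPM outside in the control section and at 871 and 440 CPM in the KO section. At the threshold on Gad1 and Gad2, Erbb4 was at 6327 CPM in control cells with 1 transcript and at 6983 CPM in those with 0, with overlapping intervals, and at 7225 and 4107 CPM in KO cells. Npas1 was at 1395 and 1795 CPM there in control cells and at 1362 and 771 CPM in KO cells. At the threshold on Elfn1, Epha6 and Sertm1, Erbb4 was at 3737 CPM in control cells with 2 transcripts and at 2713 CPM in those with 3, and at 6456 and 7389 CPM in KO cells, with overlapping intervals in both sections. Npas1 was there at 1750 CPM (1499 to 2032) and 1149 CPM (876 to 1478) in KO cells, without overlap. In control cells it was at 983 and 1085 CPM, on 5 and 2 transcripts. These values describe the threshold and were not tested.

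In the list of single molecules, Lhx6 and a Gad transcript lay in the same imaging plane in 51.1% of the control cells and 75.1% of the KO cells, which also held more transcripts of the rule. Of all Lhx6 molecules decoded, 82.4% and 84.4% lay inside a segmented cell, close to the 81.4% and 81.6% of all molecules.

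Lhx6+/Sst- cells were found in every place of the brain section, and least often in the pallium. Their share of all cells over the minimum was 2.61% (2.48 to 2.75) in the control section against 7.93% (7.77 to 8.10) in the KO section, a log2 ratio of 1.60. After every cell had been thinned at random to 25 transcripts, the shares were 1.13% (1.03 to 1.23, 494 of 43884 cells) and 1.09% (1.02 to 1.15, 1081 of 99572 cells). The log2 ratio was then -0.052, and it was 0.32 with every cell thinned to 50 transcripts. Thinning to 25 kept 43884 of the 55231 control cells over the minimum and 99572 of the 101250 KO cells. The rule was applied to the thinned counts, in which a cell can also lose its Sst transcripts. Outside the brain outline the rule found 27 of 11881 control cells (0.227%) and 187 of 19828 KO cells (0.943%), the lowest shares of any place, and the map places many of the KO cells among them along the rim of the brain.

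The brain was divided on a grid by genes of cells other than the Lhx6+/Sst- cells into a pallial region, outlined by Tbr1, Fezf2, Slc17a7, Nr4a2 and Eomes, and 4 zones named for the genes that led them. The highest shares lay in a ventral zone led by Irs4, Calcr, Baiap3 and Trh (Irs4/Baiap3 zone), with 6.47% of cells in the control section against 20.4% in the KO section, and in a zone led by Slc17a6, the vesicular glutamate transporter of subcortical neurons, with 9.01% and 17.8%. The zone of striatal genes held 2.87% and 8.44%, the zone of progenitor genes 1.98% and 9.57%, and the pallial region 0.911% and 4.61%. At 25 transcripts per cell the pallial region was the lowest of these 5 places in both sections, with 0.282% (0.196 to 0.394) in the control section against 0.464% (0.391 to 0.548) in the KO section. The Irs4/Baiap3 zone was then at 2.78% and 2.69% and the Slc17a6 zone at 3.71% and 3.07%, with overlapping intervals between the sections for each zone. The progenitor zone was at 0.967% (0.692 to 1.31) and 1.47% (1.27 to 1.70), also with overlapping intervals.

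**Figure D1:**
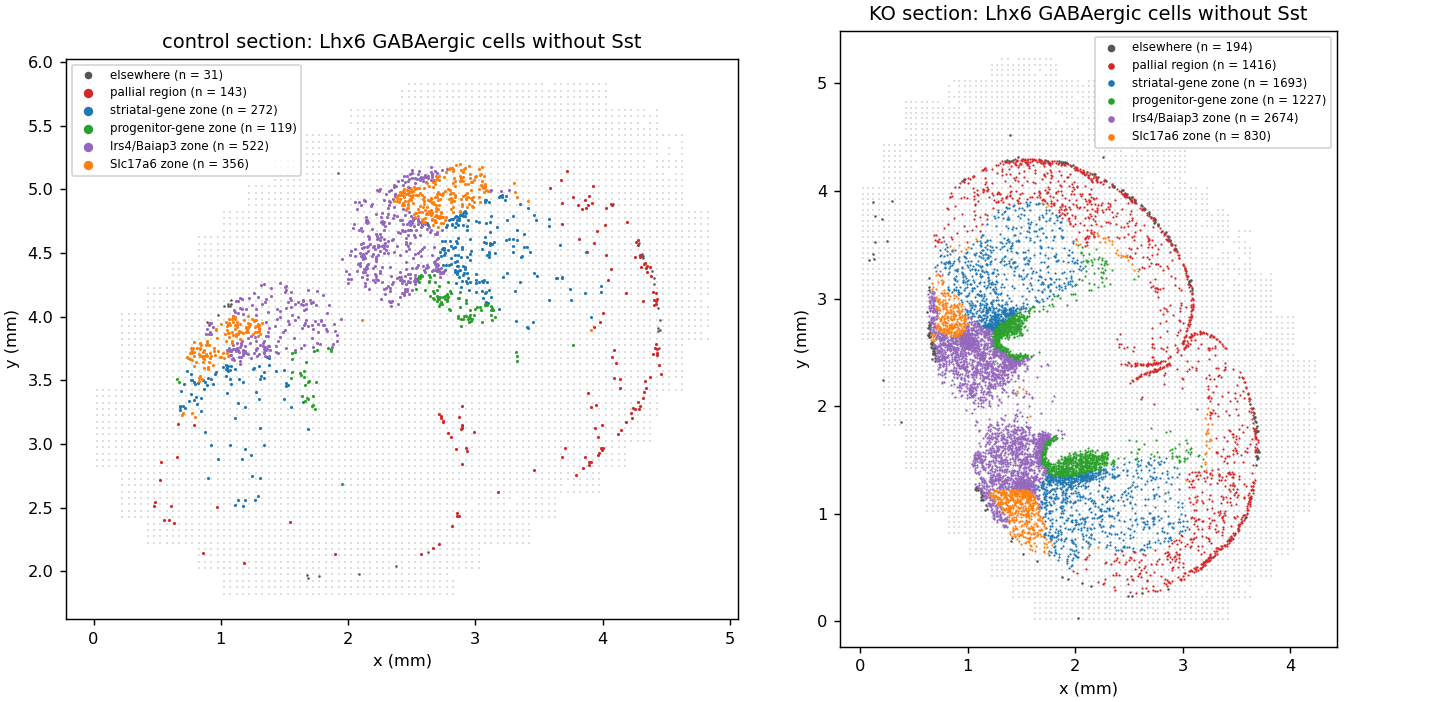
Position of every Lhx6+/Sst- cell in the control (left) and KO (right) section, x and y in mm, coloured by place, over a grey grid of all segmented tissue. The cells are densest in the ventral zones, and within the pallial region their share of cells is highest at the outer edge in both sections.

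Counted over the cells themselves, 9.91% (8.42 to 11.6, 143 cells) of the control cells and 17.6% (16.8 to 18.5, 1416 cells) of the KO cells lay in the pallial region. The Irs4/Baiap3 zone held 36.2% and 33.3%, the striatal zone 18.8% and 21.1%, the progenitor zone 8.25% and 15.3%, and the Slc17a6 zone 24.7% and 10.3%. The control hemispheres differed from each other by more than the sections did, with 19 of 451 cells (4.21%) in the pallial region of 1 and 124 of 965 (12.8%) in that of the other, against 19.1% and 16.9% in the KO hemispheres. Per area the pallial region held 33.9 cells per mm² in the control section against 395 in the KO section, and the Irs4/Baiap3 zone 336 and 1832. These densities are from the counts as deposited, without thinning. Pallial cells over the minimum had medians of 33 and 102 transcripts. Lhx6+/Sst+ cells were distributed differently: 1.13% of them lay in the progenitor zone of either section (2 of 177 and 20 of 1766), where 8.25% and 15.3% of the Lhx6+/Sst- cells lay.

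**Figure D2:**
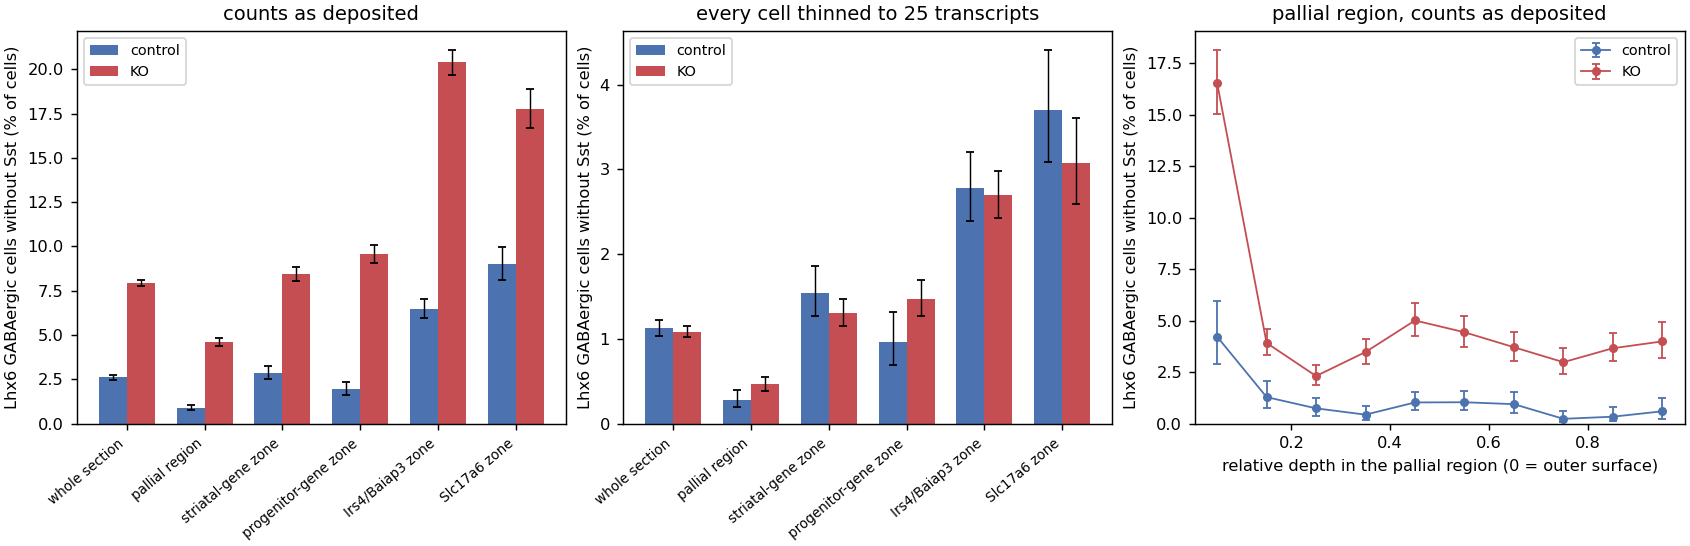
Share of cells over the minimum that were Lhx6+/Sst- cells, in % with exact binomial 95% intervals, by place from the counts as deposited (left) and with every cell thinned to 25 transcripts (middle), and by relative depth in the pallial region (right), for 1 control and 1 KO section. The whole-section bars read 2.61% and 7.93% as deposited and 1.13% and 1.09% after thinning, and the outermost depth bin is highest in both sections.

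Within the pallial region the cells concentrated at the outer surface. Relative depth runs from 0 at the outer to 1 at the inner edge, and the median depth of the Lhx6+/Sst- cells was 0.41 (0.30 to 0.48) in the control section against 0.37 (0.35 to 0.40) in the KO section. All pallial cells lay at 0.50 and 0.44, and Lhx6- GABAergic cells deeper still, at 0.53 (0.50 to 0.56) and 0.50 (0.49 to 0.53). The outer 20% of the depth held 32.9% (25.2 to 41.2) of the control and 37.0% (34.5 to 39.6) of the KO Lhx6+/Sst- cells, against 12.6% and 20.1% of all pallial cells and 12.1% and 17.8% of the Lhx6- GABAergic cells. Lhx6+/Sst+ cells shared the outer position, with 44.4% (29.6 to 60.0) and 32.7% (28.0 to 37.7) there and median depths of 0.36 and 0.40. In the outermost bins below, the shares are those of Lhx6+/Sst- cells. In the outermost of 10 depth bins they made up 4.22% (2.89 to 5.94) of control cells and 16.54% (15.02 to 18.1) of KO cells. The next bin inward held 1.29% and 3.92%. In the KO section the share was 2.31% (1.87 to 2.83) in the bin below that and 5.01% (4.27 to 5.84) in the bin just outside the middle of the depth. The bins on either side of the latter held 3.48% (2.91 to 4.12) and 4.44% (3.72 to 5.25). These bins were picked after the profile had been seen, and whether the profile has a second peak was not tested. In the control section the same middle bin held 1.03% (0.655 to 1.54) and the bin just outside it 0.439% (0.190 to 0.864), with overlapping intervals. Lhx6- GABAergic cells made up 8.58% and 8.96% of the outermost bin, and were most frequent in the innermost bin instead, with 9.88% and 14.004%.

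Lhx6+/Sst- cells lay near each other. Another such cell lay within 50 µm of 89.1% (87.3 to 90.6) of the control and 98.3% (98.0 to 98.6) of the KO cells, whereas 48.8% and 78.4% of the Lhx6- GABAergic cells had an Lhx6+/Sst- cell within that distance. Of the cells around an Lhx6+/Sst- cell 12.2% and 30.2% were of the same kind, against 3.72% and 6.56% around Lhx6- GABAergic cells. The transcripts of all cells around them differed as well. Compared with the surroundings of Lhx6- GABAergic cells, those of the Lhx6+/Sst- cells were richer in Tcf7l2 (log2 ratios of 1.62 and 1.25), Npas1 (1.26 and 1.77), Asic4 (1.18 and 1.37) and Avpr1a (1.01 and 1.48). They were poorer in Rxrg (-1.75 and -1.12), Sp8 (-1.56 and -1.65), Drd2 (-1.44 and -1.0) and Foxp1 (-1.30 and -1.06). These 8 genes were chosen after their values had been seen, and cells of both kinds can share neighbours. Npas1, Asic4, Avpr1a, Rxrg, Sp8, Drd2 and Foxp1 also differed past 2-fold between Lhx6+/Sst- and Lhx6- GABAergic cells themselves. All cells around were pooled, including those of the same kind, and the part of these in the ratios was not tested.

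Among genes that the rule did not use, the Lhx6+/Sst- cells were set apart from Lhx6- GABAergic cells of the same section by the MGE markers Sox6, Npas1 and Erbb4, with other genes, on the high side and by genes of striatal projection neurons on the low side. Of 296 genes with at least 20 expected transcripts, 13 (4.39%) were higher by 2-fold or more in both sections and 21 (7.09%) were lower. The median log2 ratio over all 296 genes was -0.04 in the control section against 0.00 in the KO section. Of the list of MGE markers, 3 of 4 genes outside the rule were higher, with list medians of 1.18 and 1.93.

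Npas1 stood at 1273 CPM (83 transcripts) against 469 CPM in the control section and at 1210 against 215 CPM in the KO section, log2 ratios of 1.44 (0.90 to 1.97) and 2.49 (2.31 to 2.68). Sox6, a factor that acts downstream of Lhx6 in MGE-derived interneurons, stood at 1596 against 648 CPM and at 2587 against 611 CPM, log2 ratios of 1.30 and 2.08. Erbb4 stood at 6828 against 3277 CPM and at 8238 against 2409 CPM, log2 ratios of 1.06 and 1.77. These 3 genes were thus higher in both sections, and for each the interval of the ratio lay above 0.

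Pou3f2, a POU-domain factor of neuronal differentiation, was at 14054 against 6015 CPM in the control section and at 17087 against 7256 CPM in the KO section, log2 ratios of 1.22 and 1.24. Nxph1, which encodes the secreted neurexin ligand neurexophilin 1, reached 0.97 in the control section against 1.60 in the KO section, and so passed the limit in the KO section alone. Dlx1, a homeodomain factor shared by GABAergic neurons of the whole ventral telencephalon, had 0.53 and 0.90. Over the 9 interneuron transcription factors entered, 4 were higher, 1 was lower and the medians were 0.53 and 0.90.

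Of the receptors and channels, Asic4, a subunit of the acid-sensing ion channel family, came first when genes were ordered by the smaller of their ratios, with 1151 against 376 CPM in the control section and 718 against 168 CPM in the KO section (log2 ratios of 1.62 and 2.09). Avpr1a, a vasopressin receptor, had 1.60 and 1.71, Chrm3, a muscarinic acetylcholine receptor, 1.17 and 1.31, and Adra1b, an adrenergic receptor, 1.09 and 1.29. C1ql2, which encodes a secreted synaptic protein, had 1.43 and 1.24 and Pde1a, a calcium-dependent phosphodiesterase, 1.20 and 1.81. Syndig1, a synaptic membrane protein, lay just past the limit, with 1.0 and 1.02. Peptide receptors as a list did not stand apart, with 1 of 11 higher and medians of -0.07 and -0.04.

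On the low side, 9 of 13 striatal projection neuron genes were lower and 0 were higher, with list medians of -1.52 and -1.17. The striatal zone held 37.2% and 43.5% of the Lhx6- GABAergic cells, against 18.8% and 21.1% of the Lhx6+/Sst- cells, and the part of place in these ratios was not tested. The 14 striatal markers summed to 100345 and 144428 CPM in Lhx6- GABAergic cells of all places, against 37652 and 59515 CPM in all Lhx6+/Sst- cells. In the Lhx6+/Sst- cells of the striatal zone they summed to 108351 and 165682 CPM. Lhx6- GABAergic cells of that zone alone were not summed, so the kinds were not compared within it. Rxrg, a retinoid receptor, stood at 2501 against 10463 CPM in the control section and at 4011 against 13085 CPM in the KO section, log2 ratios of -2.06 and -1.71. The adenosine receptor gene Adora2a had -2.75 and -1.35, and the dopamine receptor genes Drd2 and Drd1 had -1.66 and -1.26 and -1.71 and -1.17. The transcription factors Ebf1 and Foxp1 each had -1.52 in the control section against -1.59 in the KO section.

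Sp8, a zinc-finger factor of interneurons from other eminences, was lower as well, at 783 against 2096 CPM and at 720 against 2535 CPM (log2 ratios of -1.42 and -1.82). It was the only called gene of the 7 entered from the list of markers of other interneurons, where the medians were 0.06 and 0.28. Prox1, the homeodomain factor used to mark interneurons of caudal origin, had 0.35 and 0.28. The GABA transporter gene Slc32a1, which all GABAergic neurons need to load vesicles, differed little, with 0.13 (-0.10 to 0.36) and 0.25 (0.19 to 0.31).

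Of the 5 mesenchymal genes entered, Dcn, Osr1 and Thbs2 were lower, with list medians of -1.41 and -1.50. Dcn, a matrix proteoglycan, stood at 506 against 1557 CPM and at 650 against 4063 CPM, Thbs2, a matrix glycoprotein, had log2 ratios of -1.62 and -2.37. Outside that list, Igf2, an imprinted growth factor gene, had -1.35 and -2.34, and Creb3l1, a membrane-bound transcription factor, had -2.55 and -2.56 on 8 and 224 transcripts. Markers of other cell types were present in the Lhx6+/Sst- cells, and none of the genes on these lists was at 0 transcripts. The 11 pallial projection neuron markers summed to 29766 and 39826 CPM against 33321 and 33161 CPM in Lhx6- GABAergic cells. The 6 mesenchymal markers summed to 1626 and 1937 CPM against 3663 and 6827 in Lhx6- GABAergic cells, the 4 endothelial markers to 1826 and 3326 CPM against 3451 and 4240. The 4 microglial markers summed to 1243 and 833 CPM against 1484 and 1184. The part of such RNA in the ratios was not tested.

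Apart from the receptors for amines and acetylcholine, the remaining lists held few called genes. None of the 11 pallial projection neuron genes entered was past 2-fold (medians of -0.22 and 0.33), nor were the 6 neuropeptides (-0.35 and -0.05), the 5 adhesion genes (0.10 and 0.16), the 8 progenitor genes (-0.46 and -0.34), the 4 genes of oligodendrocyte precursors (-0.48 and -0.16), the 3 of Cajal-Retzius cells (-0.01 and 0.43) or the 3 of mural cells (-0.69 and -0.72). Of the 11 guidance genes Erbb4 was the 1 called, with medians of 0.10 and 0.43. Of the 8 receptors for amines and acetylcholine Adra1b was higher, and Chrm1, Drd1 and Drd2 were lower (list medians of -0.89 and -0.47). Kcnh1 was the 1 lower of 3 potassium channels (list medians of -1.49 and -0.99). Igf2 was the 1 lower of 4 imprinted genes (list medians of -0.62 and -0.48). Npy, among the neuropeptides, had 0.90 in the control section against 1.87 in the KO section.

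**Figure D3:**
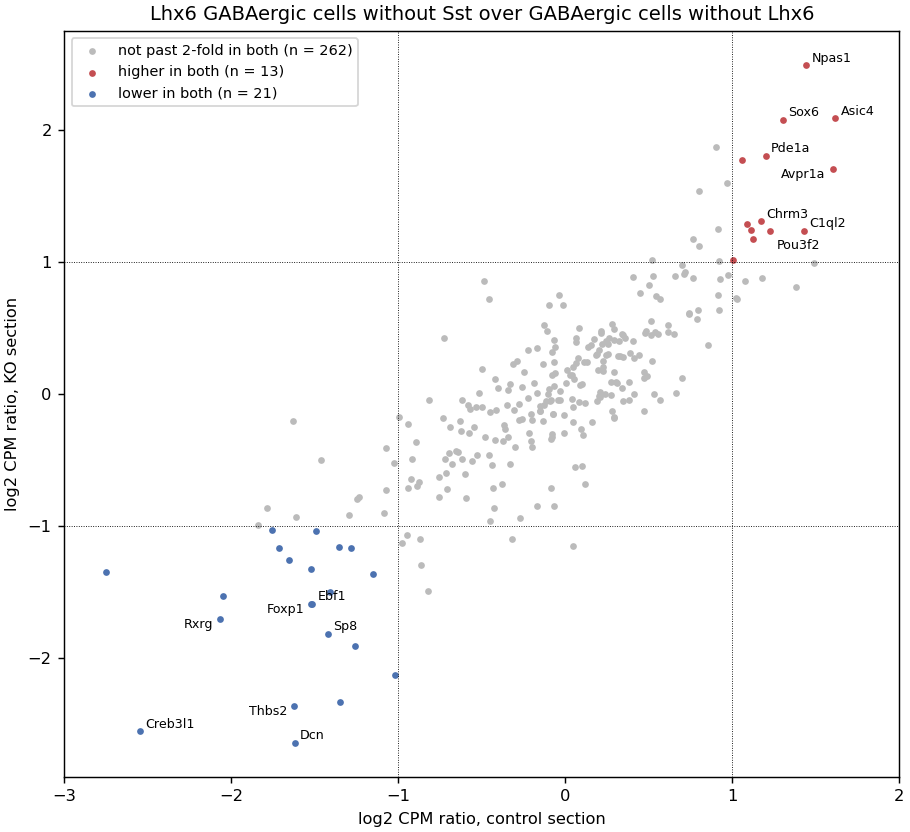
Log2 ratio of CPM in Lhx6+/Sst- cells over Lhx6- GABAergic cells, control section on the x axis and KO section on the y axis, 1 point per gene for 296 genes. The 13 red points are 2-fold or more higher in both sections, with Npas1 at 1.44 and 2.49, the 21 blue points are lower, and outermost genes of each side by the smaller value are named.

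The cells of the different places differed from one another, as did Lhx6- GABAergic cells of the same places. Between pallial and other Lhx6- GABAergic cells, 79 of 253 genes were past 2-fold in 1 direction in both sections. For Lhx6- GABAergic cells of each zone against the other zones, the counts were 129 of 369 (striatal) and 79 of 144 (progenitor). They were 104 of 347 for the Irs4/Baiap3 zone and 46 of 234 for the Slc17a6 zone. In the pallial region, 71 genes had enough transcripts to be compared with the Lhx6+/Sst- cells elsewhere in the same section, and 12 (16.9%) were higher and 11 (15.5%) lower by 2-fold or more in both sections. Npas1 stood at 6085 CPM in the pallial region against 568 CPM elsewhere in the control section and at 4115 against 373 CPM in the KO section, log2 ratios of 3.42 (2.48 to 4.38) and 3.46 (3.22 to 3.71). Nxph1 stood at 11548 against 3918 CPM and at 6002 against 2255 CPM, and Reln, the gene of the secreted glycoprotein that orders the cortical layers, at 6333 against 1941 CPM and at 6613 against 1575 CPM. After thinning to 25 transcripts, Npas1 was present in 13.4% and 9.96% of pallial Lhx6+/Sst- cells (23.8% and 32.1% before thinning), in 3.09% and 2.93% of all Lhx6+/Sst- cells and in 0.568% and 0.292% of endothelial cells, which should lack it. The endothelial cells were chosen for holding no Gad1 or Gad2 transcript, so their shares can understate RNA from GABAergic neurons nearby. Endothelial cells had a median of 48 and 154 transcripts, against 50 and 146.5 in the pallial Lhx6+/Sst- cells. Erbb4 was present in 29.1% and 27.1% of pallial cells after thinning (44.8% and 73.4% before), the highest share of any place in either section, and in 1.42% and 1.22% of endothelial cells.

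Genes of cortical projection neurons were higher in the pallial cells too. Prdm8 stood at 6706 against 201 CPM in the control section and at 5828 against 203 CPM in the KO section, log2 ratios of 5.06 and 4.84. Wnt7b, a secreted signalling protein, had 3.76 and 4.33, Nfix, a nuclear factor, 3.95 and 3.66, and Cux2, an upper-layer factor, 2.26 and 1.99. Fezf2, Tbr1 and Nr4a2 were among the 12 as well, but had been used to outline the region. In Lhx6- GABAergic cells these genes were also higher in the pallial region than elsewhere, with log2 ratios of 6.01 and 6.06 for Prdm8, 2.81 and 2.94 for Nfix, and 2.33 and 2.71 for Npas1. The 11 projection neuron markers summed to 84689 and 101336 CPM in pallial Lhx6+/Sst- cells, more than in all of them. The part of RNA from neighbouring projection neurons was not tested.

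The cell-cycle gene Ccnd2, which encodes cyclin D2, was higher in the pallial cells (log2 ratios of 3.46 and 1.90) whereas Top2a, the topoisomerase of dividing cells, was lower (-1.75 and -1.55). The cells elsewhere included the progenitor zone, where Top2a stood at 65763 and 71366 CPM. Its 1738 and 5442 CPM in the pallial region lay within the range of the other zones, 767 to 2533 CPM in the control section and 2097 to 7528 CPM in the KO section. Peg10, an imprinted gene derived from a retrotransposon, was lowest relative to its level elsewhere in the KO section, at 1027 against 17156 CPM, and stood at 1738 against 23894 CPM in the control (log2 ratios of -4.06 and -3.78). Its ratio in Lhx6- GABAergic cells was -3.90 and -3.77. Tcf7l2, a factor of the Wnt pathway, had -4.79 and -2.72, and Nrp2, a semaphorin receptor that steers interneurons around the striatum, had -2.43 and -2.32. For Nrp2 the Lhx6- GABAergic cells did not show this difference, with 0.00 and 0.01. Sulf2, Nefm, Gpr153, Tunar, Cadm1, Nnat and Grin3a made up the rest of the 11, with ratios between -2.15 and -1.13.

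In the zone of progenitor genes 31 genes could be compared with Lhx6+/Sst- cells in the other zones, and 15 (48.4%) were past 2-fold in 1 direction in both sections. Dlx1 stood at 28266 against 4086 CPM and at 39871 against 6563 CPM, Sp9, a factor of newborn GABAergic neurons, had log2 ratios of 2.95 and 2.25, and Prox1 had 2.55 and 2.66. Top2a was highest here but had been used to define the zone, as had Ccnd2 and Sox9. After thinning, Top2a was present in 63.5% and 64.6% of the cells of this zone and in 6.80% and 15.7% of all Lhx6+/Sst- cells (68.9% and 85.3%, and 10.7% and 28.3%, before thinning). Endothelial cells, some of which divide at this age, held it in 30.7% and 34.3%. Prox1 was present in 28.2% and 20.5% of the cells of the zone after thinning (31.1% and 59.4% before) and in 1.99% and 2.48% of endothelial cells. Lower were Cnr1, the cannabinoid receptor (-1.98 and -3.03), Nefm, a neurofilament subunit (-3.63 and -2.02), Ptprm, Fxyd6 and Tcf7l2.

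In the zone of striatal genes 15 of 88 genes (17%) were past 2-fold. Rxrg, Ebf1 and Gpr149 had served to define it. Npy, the gene of neuropeptide Y, stood at 6075 against 964 CPM in the control section and at 6861 against 1430 CPM in the KO section, log2 ratios of 2.66 (1.85 to 3.47) and 2.26 (2.10 to 2.42). After thinning, Npy was present in 9.17% and 14.04% of the Lhx6+/Sst- cells of this zone (15.1% and 36.6% before), in 1.05% and 1.01% of those of the Irs4/Baiap3 zone (1.92% and 4.67% before) and in 0.852% and 0.778% of endothelial cells. Syt6, a synaptotagmin, had 1.87 and 2.49, Prokr2, a prokineticin receptor, 1.37 and 2.50, and Meis2, a homeodomain factor of striatal neurons, 1.76 and 1.88. Foxp1, Isl1 and Bcl11b were higher as well, and the 14 striatal markers summed to 37652 and 59515 CPM in all Lhx6+/Sst- cells, less than in those of this zone. Nrp1 and Nrp2, receptors of semaphorins, were lower (-2.74 and -2.12, and -1.51 and -2.26).

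The Irs4/Baiap3 zone, which held the largest share of the cells in both sections, had 25 of 154 genes (16.2%) past 2-fold. Nrp1 stood at 7031 against 1829 CPM in the control section and at 15146 against 4509 CPM in the KO section, and Nrp2 at 11355 against 5675 CPM and at 14767 against 4472 CPM. Onecut2, a factor of early neurons, had log2 ratios of 1.51 and 2.36, Pnoc, the gene of the opioid-like peptide nociceptin, 1.34 and 1.99, Cadm1, an adhesion molecule, 1.38 and 1.23, and Peg10 1.20 and 1.0. Npy was lowest here, at 437 and 413 CPM. After thinning, Nrp1 was present in 13.9% and 26.1% of the cells of the zone (24.7% and 70.9% before), less than the 21.3% and 36.1% of endothelial cells, which use Nrp1 as a receptor for vascular growth factor. Lhx6- GABAergic cells had ratios of the same sign for Nrp1 (2.51 and 2.44), Nrp2 (1.56 and 2.59), Onecut2 and Pnoc.

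In the Slc17a6 zone 27 of 127 genes (21.3%) were past 2-fold. Tcf7l2 led, at 30094 against 6345 CPM in the control section and at 19302 against 1957 CPM in the KO section, and after thinning it was present in 32.3% and 23.8% of the cells of the zone (45.5% and 53.1% before) and in 14.49% and 13.2% of endothelial cells. Avpr1a stood at 2183 against 584 CPM and at 1603 against 505 CPM, Chrm2, a muscarinic receptor, had log2 ratios of 1.55 and 1.37, Grin3a, a subunit of the NMDA receptor, 1.09 and 1.29, and Pcdh8, a protocadherin, 1.18 and 1.59. Cxcl14, Camk2d, Serpine2, Sphkap, Nr2f2 and Adra1b were also higher. Prox1, Sp9, Foxp1, Rxrg and Top2a were among the 16 lower genes. Slc17a6 itself was at 1121 and 2151 CPM in the Lhx6+/Sst- cells of the zone that it defined, below the 1441 CPM of those of the Irs4/Baiap3 zone in the control section and the 2261 CPM of those of the pallial region in the KO section.

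**Figure D4:**
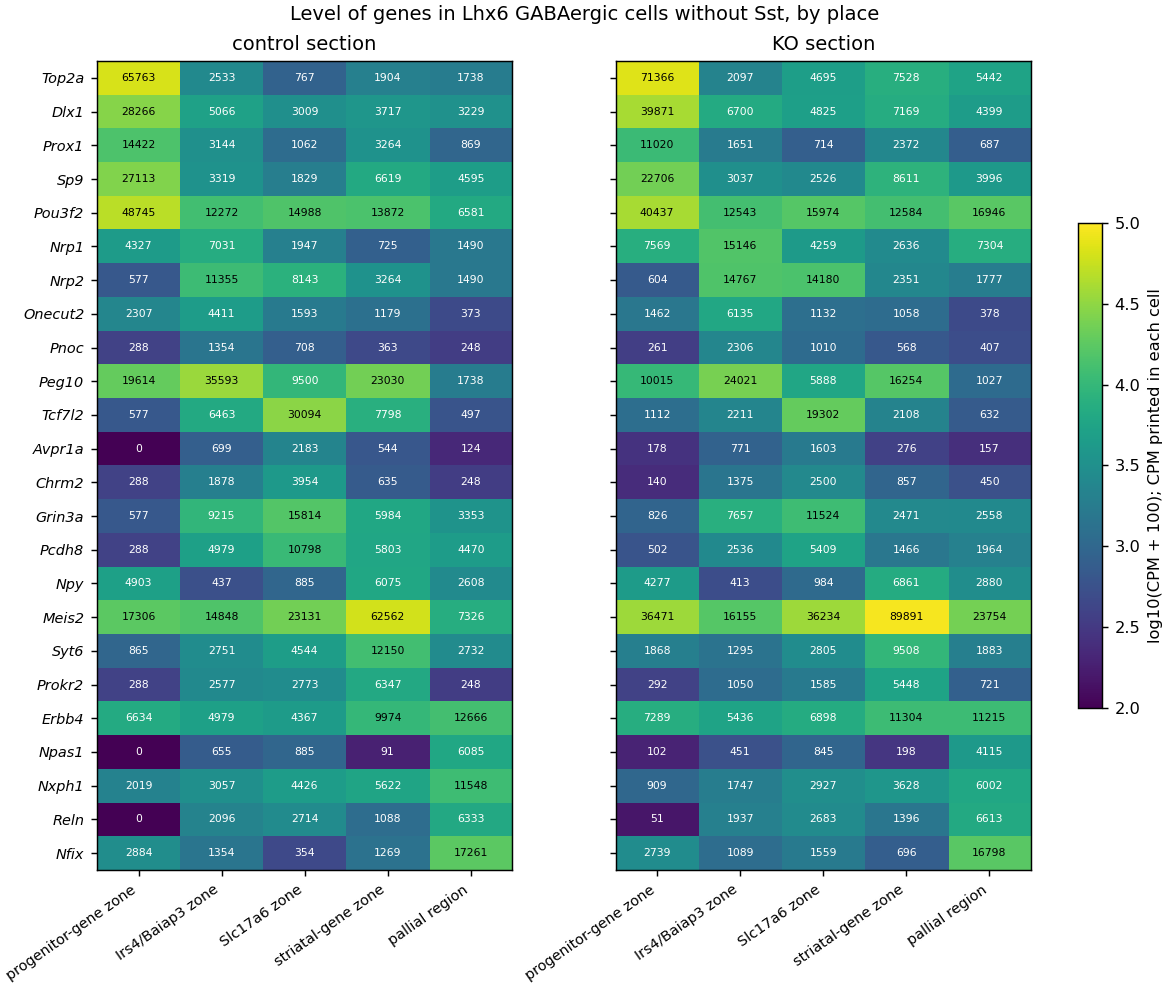
CPM of 24 genes, chosen after their values had been seen, in Lhx6+/Sst- cells of the 5 places in the control (left) and KO (right) section, with colour on a log10(CPM + 100) scale and the CPM printed in each field. Dlx1 is highest in the progenitor zone, with 28266 and 39871 CPM, whereas Npas1 is at 6085 and 4115 CPM in the pallial region and under 1000 CPM elsewhere.

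Lhx6+/Sst+ cells resembled the Lhx6+/Sst- cells in most of the genes that could be compared, with 5 of 95 (5.26%) past 2-fold in both sections. Npy stood at 9577 CPM in cells with Sst against 2041 CPM in cells without it in the control section and at 17896 against 2819 CPM in the KO section, log2 ratios of 2.23 (1.68 to 2.77) and 2.67 (2.58 to 2.75). After thinning it was present in 14.3% and 23.0% of cells with Sst (23.7% and 48.9% before) and in 3.79% and 6.23% of cells without (6.51% and 18.9% before). Slc17a7, a vesicular glutamate transporter gene, was also higher (3.70 on 49 transcripts and 1.36). Top2a (-1.20 and -2.47) and Dlx1 (-1.14 and -1.24) were lower in cells with Sst. Erbb4 had ratios of -0.13 (-0.64 to 0.36) and 0.06 (-0.02 to 0.15) and Sox6 of 0.56 and 0.47. The cells with Sst were deeper, with medians of 58 and 179 transcripts against 43 and 132. They also lay less often in the progenitor zone, where Top2a and Dlx1 were highest, with 1.13% in either section against 8.25% and 15.3% of cells without Sst. The parts of depth and of place in these ratios were not tested.

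The cells that the limit on Elfn1, Epha6 and Sertm1 had kept out, 66 and 1160, differed from the Lhx6+/Sst- cells in 5 of 46 genes (10.9%). Parm1 (1.16 and 1.64), Nefm (1.12 and 1.34) and Sphkap (1.03 and 1.48) were higher, and Ccnd2 (-1.89 and -1.28) and Peg10 (-1.77 and -1.04) were lower.

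Between the sections, 24 of 287 genes (8.36%) were higher and 15 (5.23%) lower by 2-fold or more in the KO than in the control Lhx6+/Sst- cells, with a median log2 ratio of 0.04. The same genes in all other cells of the sections gave 15 higher and 5 lower with a median of 0.10. Of the 24 higher genes 23 had the same sign in all other cells and 8 were past 2-fold there, and of the 15 lower genes 15 had the same sign and 3 were past 2-fold.

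Epha3, an ephrin receptor of axon guidance, stood at 844 CPM (55 transcripts) in the control section and 3845 CPM (4546) in the KO cells, a log2 ratio of 2.19 (1.77 to 2.64) against 1.85 in all other cells. Cd24a, a surface glycoprotein of young neurons, stood at 8500.2 and 31649 CPM, a ratio of 1.90 against 2.14. Foxp2 had 1.83 against 1.47, Pvalb, the parvalbumin gene, 1.76 (0.89 to 2.77, on 13 control transcripts) against 1.36, and Kcnk2, a potassium leak channel, 1.33 against 1.36. Against control hemisphere 1 alone Kcnk2 was within 2-fold (0.85 and 0.93). The ratios of these 5 genes differed from those of all other cells by 0.40 at most, for Pvalb.

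Sstr2, a somatostatin receptor gene, stood at 614 and 2065 CPM, a log2 ratio of 1.75 (1.25 to 2.29) against 0.80 in all other cells. Wnt7b had 1.37 against 0.58 and Top2a 1.39 (1.21 to 1.57) against 0.77. Since the places held different shares of the cells in the sections, the ratios were also taken with the 5 places weighted equally, a calculation added after the data had been seen. Of the 39 genes past 2-fold, 22 were then still past it. Sstr2 then had 1.72, Wnt7b 1.13 and Top2a 0.33, and Dlx1, at 5186 and 10414 CPM with a ratio of 1.01 (0.83 to 1.19) as deposited against 0.65 in all other cells, had 0.54. Mc4r, a melanocortin receptor gene, had 1.18 (0.37 to 2.10, on 16 control transcripts) against -0.11 in all other cells, and was the 1 higher gene of the 24 with the opposite sign there. With the places weighted equally it had 0.84, so it was then within 2-fold, as were Top2a and Dlx1. Wnt7b was within 2-fold outside the pallial region (0.52) and in cells of 25 to 75 transcripts (0.66). Under the alternatives run for it, Sstr2 lay between 1.02 and 2.71.

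On the low side, Tcf7l2 stood at 11584 CPM in the control section and 3434 CPM in the KO cells, a log2 ratio of -1.75 (-1.90 to -1.61) against -0.78 in all other cells and -0.84 with the places weighted equally. Gpr149, an orphan receptor gene, had -1.89 against -0.86, Pcdh8 -1.52 against -0.91, Mrc1, a mannose receptor gene of macrophages, -1.66 against -0.84, and Vwc2, a secreted bone morphogenetic protein antagonist, -1.41 against -1.01. The adrenergic receptor genes Adrb1 and Adra2a had -1.41 and -1.22, against -0.42 and -1.02, and Chrna2, a nicotinic receptor subunit, had -1.29 against -0.98. With the KO section thinned to the control depth, Adrb1 (-0.63), Adra2a (-0.86), Chrna2 (-0.81) and Vwc2 (-0.73) were within 2-fold.

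None of the 4 MGE markers entered was past 2-fold between the sections. Npas1 stood at 1273 and 1210 CPM, a log2 ratio of -0.07 (-0.46 to 0.33) against -0.70 in all other cells, and Erbb4 at 6828 and 8238 CPM with 0.27 (0.11 to 0.44) against 0.10. Sox6 had 0.70 against 0.65 in all other cells and Nxph1 -0.69 against -0.74. Of the 34 genes called between Lhx6+/Sst- and Lhx6- GABAergic cells, Isl1 (1.17 against 0.92 in all other cells) and Ebf1 (1.01 against 0.97) were higher and Igfbp5 (-1.14 against -1.23) lower in the KO section. With the places weighted equally Ebf1 had 0.87 and was within 2-fold. Asic4 had -0.68 against -0.33. Slc32a1 stood at 4987 and 5091 CPM, a ratio of 0.03 (-0.16 to 0.23) against 0.21. A list of 22 genes was taken from the text of the study on Dnmt1 deletion. The study names them as raised after the deletion at E14.5, in RNA sequencing of sorted Sst-Cre/tdTomato cells. The cells here were of E16.5 and were chosen for holding no Sst, so the sets of cells are unlike. Of the list, 6 genes were on the panel and 5 were compared. Of these 5, Dlx1 was past 2-fold and higher, but had 0.54 with the places weighted equally and was then within 2-fold. The median of the 5 was 0.27 against 0.10 in all other cells. Of the 11 guidance genes entered, Epha3, Nrp1 and Cxcr4 were higher, with a list median of 0.50 against 0.52 in all other cells. Nrp1 had 1.26 against 0.75 and Cxcr4 1.02 against 0.84. With the places weighted equally Epha3 had 1.78 and Nrp1 1.25, and Cxcr4 had 0.65 and was within 2-fold.

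**Figure D5:**
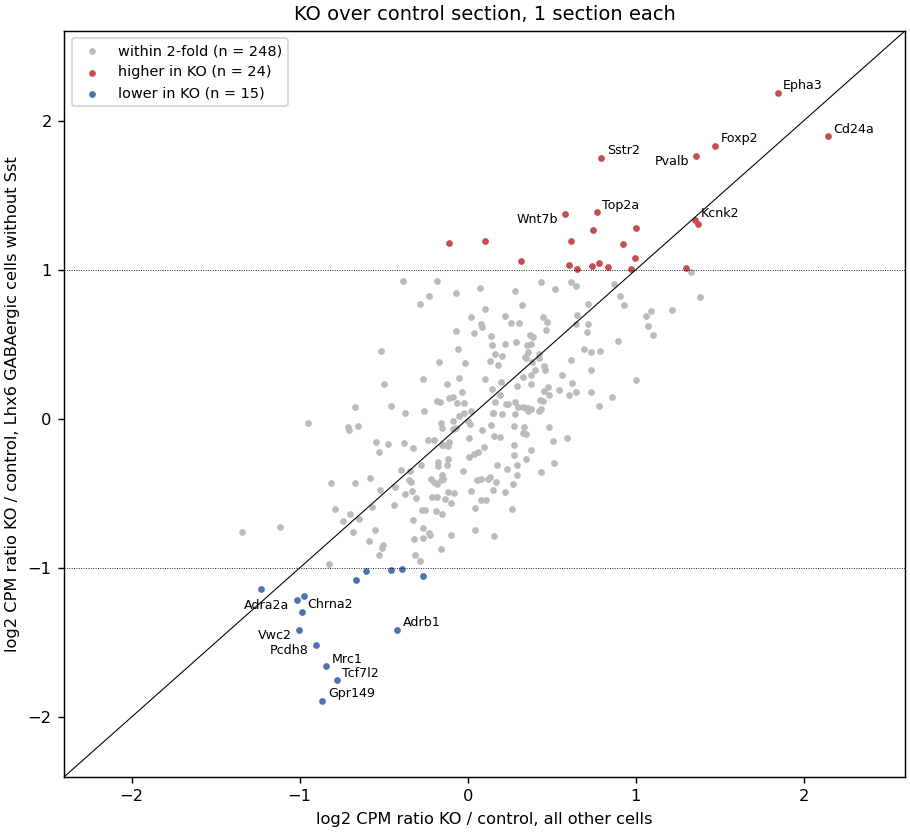
Log2 ratio of CPM in the KO over the control section in all other cells (x axis) and in Lhx6+/Sst- cells (y axis), 1 point per gene for 287 genes, with the line of equal ratios. The 24 genes past 2-fold higher (red) and the 15 past 2-fold lower (blue) lie mostly on the same side of 0 in all other cells, with Sstr2 at 1.75 against 0.80 and Tcf7l2 at -1.75 against -0.78, and the 8 outermost genes of each side are named.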

How the data were processed

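MERFISH counts were available for 1 control and 1 KO section (Vizgen Pan Neuro panel). The authors deposited, per section, a table of raw transcript counts per segmented cell, the position, volume and stain intensity of each cell, and a list of decoded molecules with imaging plane. The segmentation model is not given in the sources used here. The deposited counts were used as they are, and the stain intensities in no comparison. The cells and gene lists were chosen with earlier results of these data known.

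Counts were summed over cells and scaled per 1000000 panel transcripts outside the 7 genes of the rule (CPM). A gene was compared when its mean CPM gave at least 20 expected transcripts in the smaller group, and was called past 2-fold, within sections only when past it in the same direction in both. Ratios carry exact Poisson and shares exact binomial (Clopper-Pearson) 95% intervals. With 1 section per group no test was run. Named were genes of the fixed lists (cell type markers, transcription factors, guidance, adhesion, peptides, receptors, potassium channels, imprinted genes) and the 8 highest and 8 lowest ratios of each main comparison, ordered by the ratio nearer to 0. Some genes that this rule covers are not reported here. Other genes past 2-fold, and those of the zones, were chosen after their values had been seen.

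Places were drawn on a 25 µm grid, smoothed with an SD of 50 µm, from cells other than the Lhx6+/Sst- cells. The pallial region held bins where the 5 pallial genes made up over 50% of these and 12 subpallial genes, and its further limits were chosen with the maps in view. Thinning drew 25 transcripts per cell and left out 149 control and 19 KO cells of the Lhx6+/Sst- cells. Endothelial cells for the background held at least 2 Cldn5 and at least 1 Flt1 transcript and none of Gad1 or Gad2. The limit on Gad1 and Gad2 can lower their shares of genes of GABAergic neurons, such as Npas1, Erbb4, Npy and Prox1. No doublet caller was used on segmented cells, and the largest 1% by volume were left out as an alternative. Depth, thresholds, filters, scaling, hemispheres and outline were varied as alternatives. Scripts were tested on simulated data and ran in Python 3.11.15 with numpy 2.4.6, scipy 1.17.1, pandas 2.3.3, scikit-learn 1.9.0 and matplotlib 3.10.9.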

Additional observations from a re-analysis of the deposited data

How the results depend on the processing

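The log2 ratio of the KO over the control share of Lhx6+/Sst- cells, 1.60 as deposited, depended on depth and thresholds. It was -0.42 with the KO section thinned to the control depth and -0.052 with every cell at 25 transcripts, both of the opposite sign, and 0.32 at 50 transcripts. It was 1.99 and 1.08 with minimums of 10 and 50 transcripts, 0.98 and 2.41 with at least 1 and at least 3 Lhx6 transcripts, and 2.35 with at least 2 Gad transcripts. The count of genes past 2-fold between Lhx6+/Sst- and Lhx6- GABAergic cells, 34, lay between 23 and 38 under its 9 alternatives. Between pallial and other cells it was 23, with 13 at 3 Lhx6 transcripts, 13 at 50 expected transcripts, 93 without the filter and 11 in cells of 25 to 75 transcripts. Between the sections it was 39, with 24 at 50 expected transcripts, 80 without the filter, 64 in cells of 25 to 75 transcripts and 17 in pallial cells alone. The pallial share differed by 7.72 percentage points between the sections, and by 4.87 with a minimum of 50 transcripts, 3.60 with the KO section thinned, and 14.9, 12.7 and 4.06 between single hemispheres. The median depth differed by -0.04 and by 0.14 and 0.11 against the control hemisphere with 19 pallial cells. The log2 ratio of cells of the same kind around Lhx6+/Sst- against Lhx6- GABAergic cells, 1.71 and 2.20, was 1.91 and 2.36 within 25 µm and 1.55 and 1.98 within 100 µm. Where no construction of the alternative gives it, the cause was not tested. The 8 highest and 8 lowest genes of each of these 3 comparisons did not all have a value under every alternative. Between the sections Pvalb had 7 values and Cd24a 16, and pallial Tunar had 3. Among the values there were none reversed, but 15 of 453 were within 2-fold. Between the sections these were Top2a (0.96), Adra2a (-0.86), Chrna2 (-0.81), Vwc2 (-0.73) and Adrb1 (-0.63) with the KO section thinned, Wnt7b in cells of 25 to 75 transcripts (0.66) and outside the pallial region (0.52), Kcnk2 against control hemisphere 1 (0.85 and 0.93), and Top2a (0.33) and Tcf7l2 (-0.84) with places weighted equally. Within sections they were Pde1a (0.79) and Sp8 (-0.93) at a minimum of 50 transcripts, and Chrm3 (0.69) and pallial Nefm (-0.46) in cells of 25 to 75. Other named genes were run with places weighted equally only. No paired analysis was possible because each group held 1 section. The control depth limits genes under 20 expected transcripts, which were not compared.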

Other observations

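In the pallial region the cells of the outer 20% of the depth, 47 in the control section against 524 in the KO section, could be set against the 96 and 892 deeper ones. The genes here were chosen after their values had been seen, and the control counts are small. Reln stood at 13819 CPM in the outer and 2477 CPM in the deeper KO cells, a log2 ratio of 2.48, and at 30 and 21 transcripts in the control cells, a ratio of 1.09. Ndnf, the gene of a secreted factor of layer 1 neurons, stood at 3513 and 547 CPM in the KO cells (2.68), and at 9 and 4 transcripts in the control. Npas1 had ratios of 1.41 in the KO and 0.75 in the control section.

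The deeper cells held more of Sstr2, at 9420 CPM against 454 CPM in the outer KO cells (log2 ratio of -4.38), with 19 transcripts in the deeper and 0 in the outer control cells. Meis2 had -2.64 and -3.65 in the KO and control sections, Pou3f2 -2.05 and -2.14, and Nrp1 -2.02 and -2.88. Erbb4 stood at 11563 and 11016 CPM in the KO cells (0.07), so it did not follow depth in this way. Lhx6- GABAergic cells of the KO section had 2.32 for Reln, 2.75 for Ndnf, 0.84 for Npas1, -2.08 for Sstr2, -1.25 for Meis2, -0.82 for Pou3f2 and -0.99 for Nrp1. Dcn (3.14) and Ebf3 (3.01) were higher in the outer KO cells as well. Reln and Ndnf are also on the list of markers of Cajal-Retzius cells. The markers of that list summed to 7947 and 8679 CPM in the pallial Lhx6+/Sst- cells of the control and KO sections. In all Lhx6+/Sst- cells they summed to 4572 and 5224 CPM. The parts of RNA from Cajal-Retzius cells and from the meninges next to the outer cells were not tested.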
